A study of Mus musculus with 352 samples.

Results

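The macrophage and antigen presentation genes are a set of 41 genes chosen by name: subunits of complement C1q, surface receptors and secreted products of macrophages, proteins of MHC class I and class II presentation, Fc receptors with their adaptors, and membrane and cytoskeletal proteins of leukocytes. Their levels were followed in tibialis anterior, a fast muscle of the lower leg, in 352 C57BL/6 mice in 15 groups. The set was chosen with earlier results of these data known, so counts of its members called are a description. Of the 41 genes, 35 were in the deposited table of 14413 genes. Itgam, Fcgr2b, Cx3cr1, Aif1, Cybb and Ptprc were not analysed here. All 35 were tested in a fit over all genes of the table. A second fit, kept to the 9862 genes with a mean of at least 0 on the log2 FPKM scale (1 FPKM, fragments scaled to gene length and library size), tested 18 of them and is called the higher-level fit below. C1qc (mean 0.03 log2 FPKM) and Pf4 (0.04) lay just inside that limit, and Mrc1 (-0.13) and Tap1 (-0.23) just outside it.

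The study blocked the clock gene Bmal1 (symbol Arntl) with a floxed stop cassette and restored it by Cre in chosen tissues. RE-RE mice were Bmal1(stopFL/stopFL) with both Syt10-Cre(-/tg), which is active in brain, and Hsa-Cre(-/tg), which is driven by a skeletal actin promoter in muscle fibres. Br-RE mice carried Bmal1(stopFL/stopFL) with Syt10-Cre(-/tg), Mu-RE mice Bmal1(stopFL/stopFL) with Hsa-Cre(-/tg), and KO mice Bmal1(stopFL/stopFL) with Cre(-/-). The stopFL alleles were thus shared by every genotype other than wild-type (WT), which had neither the cassette nor a Cre. At 10 to 12 weeks (10 weeks below) on ad libitum feeding (ALF) there were 24 RE-RE, 23 Br-RE, 25 Mu-RE, 23 KO and 23 WT mice. At 26 weeks on ALF there were 24 RE-RE, 22 Br-RE, 24 Mu-RE, 24 KO and 22 WT mice. On time-restricted feeding (TRF) at 26 weeks there were 23 Mu-RE, 23 KO and 24 WT mice, and WT mice of 85 to 116 weeks (old) numbered 24 on TRF and 24 on ALF. Each group held 3 to 5 mice at each of 6 zeitgeber times (ZT, hours after lights on), of both sexes. Where no feeding schedule is named, mice were on ALF.

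Macrophages live between the fibres of muscle, where they clear debris, take up haemoglobin and iron, and secrete complement and chemokines. MHC class II molecules carry peptides from engulfed material and are made mainly by professional antigen presenting cells. Class I molecules carry peptides from inside the cell and are made by most cell types. Which cells of the muscle made the class I RNA was not tested. Macrophages have a Bmal1-driven clock of their own. The RNA came from whole muscle, so fewer cells of a type and less RNA per cell cannot be told apart for any gene below.

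Tissue and genotype labels were checked against known genes. The summed level of 6 myofibre genes had group medians of 44588 to 54831 FPKM. Arntl reads were not low in KO muscle (median 10.6 FPKM at 10 weeks, range 8.14 to 13.8) beside WT muscle (7.45 FPKM, 1.72 to 35.4), so the level of that gene does not show the block. Dbp, a gene that BMAL1 drives, had a median of 8.05 FPKM in Mu-RE, 1.16 FPKM in KO and 9.97 FPKM in WT mice of 10 weeks. In RE-RE and Br-RE mice, whose levels can be compared only with each other, it was 14.4 and 1.6 FPKM. The sources used here give no depth per library. At 25 M (mega) read pairs, the average in the labels, mean levels correspond to 58.7 pairs for C1qa, 93.6 for Cd163, 2173 for H2-K1 and, as the fewest among the members, 13.2 for Cd53. Of the libraries, 9 had a median correlation with the others of their group under 0.94 (range over all libraries 0.909 to 0.981). One of them, a WT mouse of 10 weeks at ZT 0, had 19.6 FPKM of Cd68 against a group median of 2.19 FPKM. Without these 9 libraries, 13 of the 18 members of the higher-level fit still fell in KO against WT mice of 10 weeks, and 12 in those of 26 weeks.

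Promoter stretches of 5 members are printed as examples. H2-Aa and H2-Eb1 are class II genes, which fell together in KO against WT mice. H2-K1 and B2m are class I genes, which rose in KO against WT mice at 10 weeks and did not pass at 26 weeks. Cd163 rose at both ages where Bmal1 was restored in muscle. Each is the 150 bases before the RefSeq start (GRCm38.p6), 5′ to 3′ on the gene's strand. Capitals mark CCAAT boxes (CCAAT, or ATTGG on the other strand), which belong to the known class II promoter architecture, and GAAA repeats (GAAA, any 2 bases, GAAA, on either strand), a core of interferon-responsive elements. H2-Aa lies at chr17:34287824-34287973 (minus strand), H2-Eb1 at chr17:34305717-34305866 (plus), H2-K1 at chr17:34000348-34000497 (minus), B2m at chr2:122147537-122147686 (plus) and Cd163 at chr6:124304501-124304650 (plus).
H2-Aa: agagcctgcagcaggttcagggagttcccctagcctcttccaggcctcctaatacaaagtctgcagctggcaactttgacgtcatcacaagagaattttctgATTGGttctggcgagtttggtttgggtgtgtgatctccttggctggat
H2-Eb1: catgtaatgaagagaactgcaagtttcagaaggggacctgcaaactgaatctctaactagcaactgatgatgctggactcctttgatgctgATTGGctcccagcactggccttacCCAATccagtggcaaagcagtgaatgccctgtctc
H2-K1: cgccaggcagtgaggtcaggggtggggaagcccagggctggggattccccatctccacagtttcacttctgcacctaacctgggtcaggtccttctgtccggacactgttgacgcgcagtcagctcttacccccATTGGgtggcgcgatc
B2m: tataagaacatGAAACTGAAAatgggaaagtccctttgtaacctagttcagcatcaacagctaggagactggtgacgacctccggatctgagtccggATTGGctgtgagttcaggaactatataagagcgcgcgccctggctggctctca
Cd163: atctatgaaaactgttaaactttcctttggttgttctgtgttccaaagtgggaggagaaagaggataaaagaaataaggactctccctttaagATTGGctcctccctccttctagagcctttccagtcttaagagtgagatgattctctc
RefSeq promoters were found for 33 of the 41 genes, 41 promoters in all, and 250 bases before each start were searched on both strands. CCAAT was present in 19 of them (46.3%), against 33.9% of all 32851 mouse promoters in the table. Its genes included B2m, H2-D1, H2-K1 and Tap1 of class I. Of class II they included H2-Aa and H2-Eb1, and not Cd74 or H2-Ab1, so CCAAT did not set class II apart from class I. The GAAA repeat was present in 4 (9.76%; genes Aif1, B2m, Ctss and Cybb), against 2.98% of all. CACGTG, the E-box to which BMAL1 and CLOCK bind, was present in 1 (2.44%; Lgmn), against 6.02% of all. A motif match is a description of letters and not a binding site. Each motif was counted on its own, and none contains another.

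Levels spanned a wide range among the members, and FPKM allows them to be compared per length. B2m, the light chain of class I molecules, was highest at 124 FPKM (the mean on the log2 scale over all mice), followed by H2-K1 at 29.6, H2-D1 at 27.7, Cd74 at 13, Lgmn at 12.6 and Lyz2 at 9.47 FPKM. Adgre1, which encodes the macrophage marker F4/80, was lowest at 0.181 FPKM. Only 4 of 12320 values lay at or under 0.011 FPKM, near the floor of the table. WT mice of 10 weeks had the highest group mean for 25 of the 35 members, and Mu-RE mice of 26 weeks on TRF the lowest for 30. In that order the Br-RE and RE-RE groups are not comparable with the others, because gene by gene the mean of each such set equals that of the remaining mice of the same age.

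**Figure D1:**
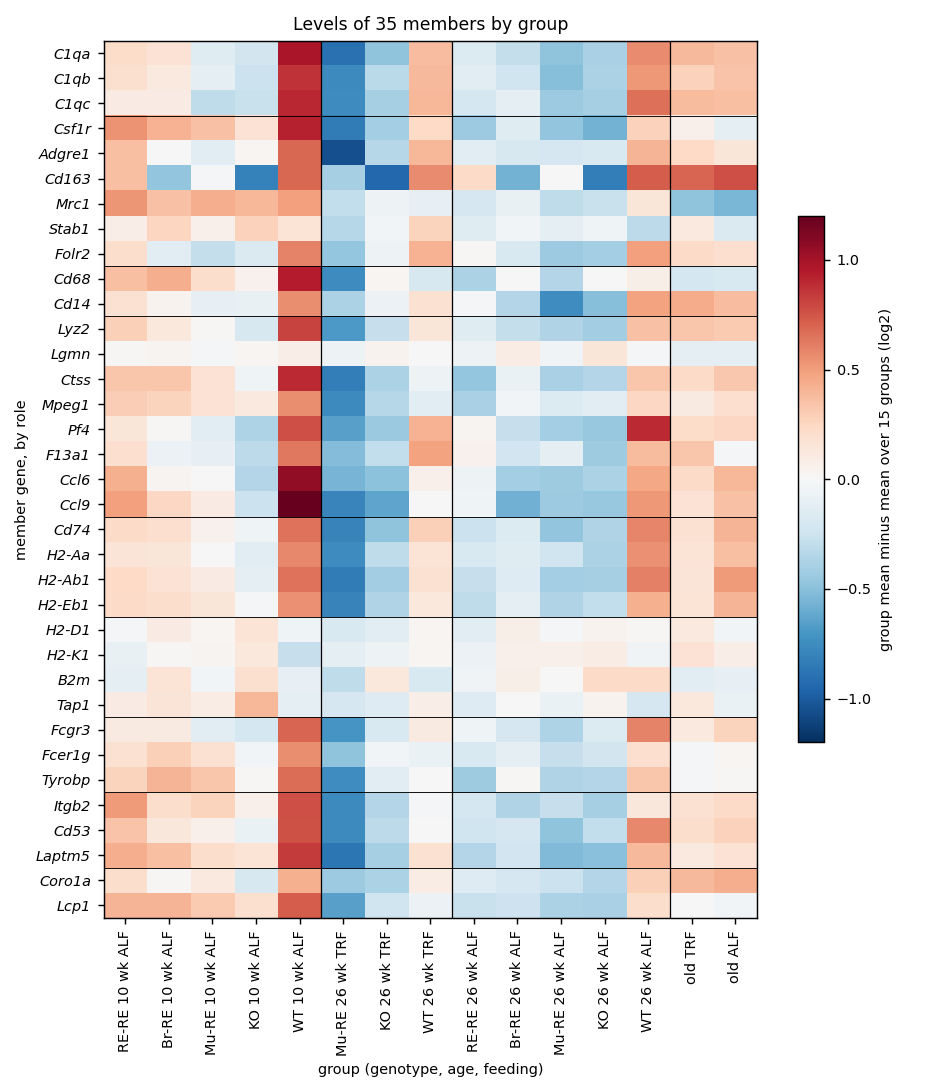
Group means of the 35 members (rows, by role) in 15 groups (columns), as the group mean minus the mean over 15 groups on the log2 scale; red is higher, blue lower. The WT column of 10 weeks is the reddest for most macrophage members, the Mu-RE column on TRF the bluest, and the class I genes do not follow them. Br-RE and RE-RE columns can be compared only with each other.

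Most macrophage genes of the set were lower in KO than in WT muscle at 10 weeks, and the class I genes were higher. Of 35 members tested with limma over all genes of the table, 28 fell and 4 rose, where 19.2% of all genes fell and 17.6% rose. The median difference of the 35 was -0.71 on the log2 scale, beside 0.00 over all genes. In the higher-level fit 13 of 18 fell and 3 rose, where 41.8% of all genes changed in either direction. At 26 weeks 27 of 35 fell and 0 rose, where 19.9% of all genes fell, with a median of -0.75. The higher-level fit called 12 of 18 lower, where 46.3% of all genes changed in either direction.

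The 3 subunits of C1q, the recognition part of the classical complement pathway and a product of resident macrophages, were all lower. C1qa (ENSMUSG00000036887, chr4:136895917-136898803, GRCm38) had 0.585, 1.88 and 4.07 FPKM (lowest, median, highest) in the 23 KO mice, against 2.64, 4.5 and 11 FPKM in the 23 WT mice of 10 weeks. The medians were far apart while the ranges overlapped between 2.64 and 4.07 FPKM. The difference was -1.21 on the log2 scale (SE 0.20, adjusted p 4.96e-06). At 26 weeks C1qa had 0.719, 1.76 and 4.84 FPKM in KO mice, against 1.07, 3.72 and 5.68 FPKM in WT mice, a difference of -0.97 (SE 0.18, adjusted p 2.18e-05). C1qb and C1qc fell by 1.13 and 1.17 at 10 weeks and by 0.89 and 1.06 at 26 weeks on the log2 scale.

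**Figure D2:**
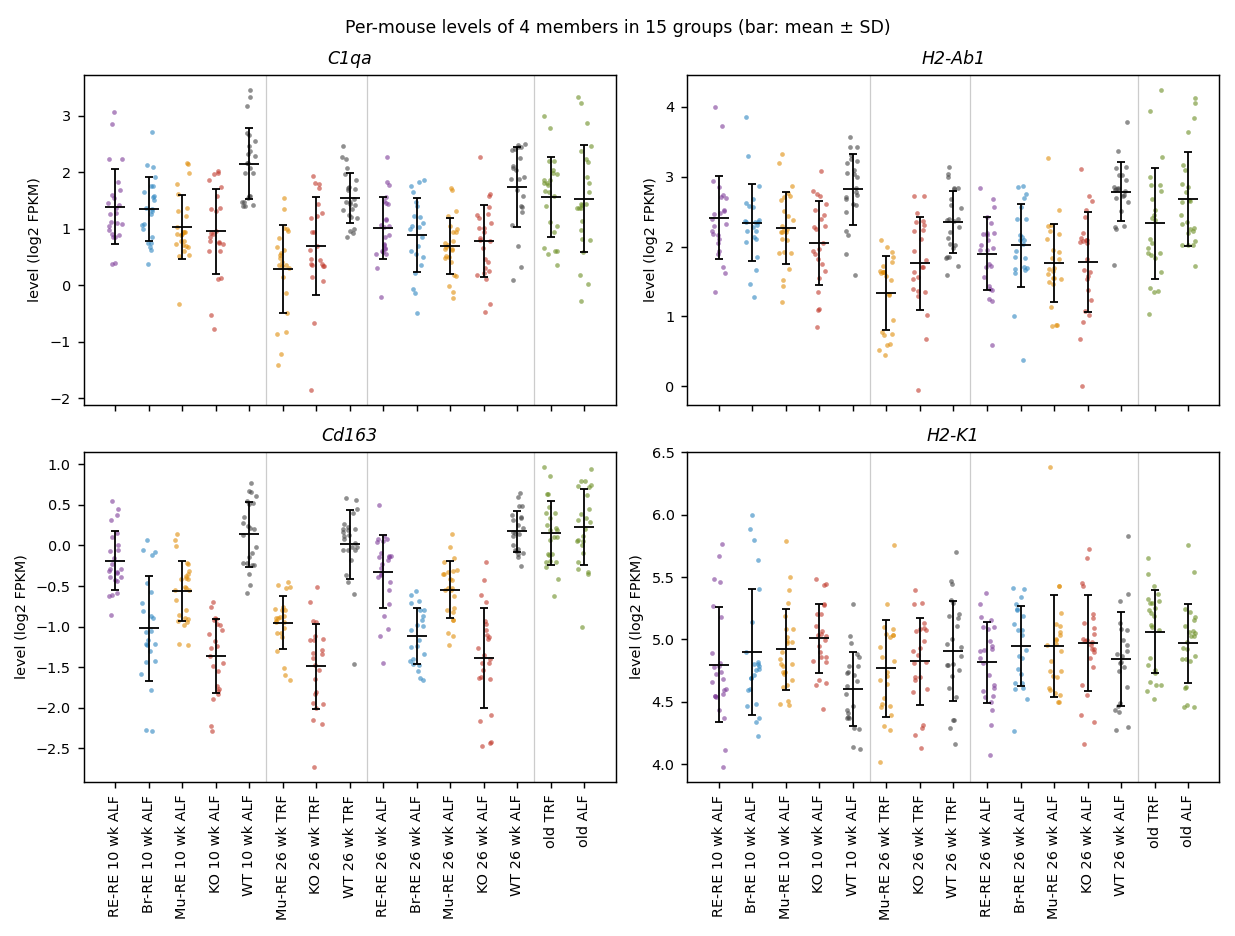
Levels of C1qa, H2-Ab1, Cd163 and H2-K1 (log2 FPKM) in each mouse (points) of the 15 groups, with the mean and SD (bars). KO points of C1qa and H2-Ab1 lie lower than WT points with overlap, and KO and WT points of Cd163 at 10 weeks do not overlap.

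Among the receptors that mark the macrophage lineage, Cd163 changed most. It encodes the scavenger receptor for haemoglobin bound to haptoglobin (ENSMUSG00000008845, chr6:124304656-124330527, GRCm38). It had 0.204, 0.417 and 0.618 FPKM in KO mice, against 0.665, 1.15 and 1.70 FPKM in WT mice of 10 weeks, so that every KO mouse was below every WT mouse. The difference was -1.49 (SE 0.12, adjusted p 2.93e-13) at 10 weeks and -1.57 (SE 0.13, adjusted p 6.51e-14) at 26 weeks on the log2 scale. Csf1r, the receptor for the macrophage growth factors CSF1 and IL-34, had 0.343, 0.884 and 1.68 FPKM in KO mice, against 0.724, 1.28 and 3.85 FPKM in WT mice of 10 weeks, a difference of -0.76 (SE 0.17, adjusted p 0.000436). Csf1r fell by 0.85 on the log2 scale at 26 weeks. Folr2, a folate receptor of resident macrophages, fell by 0.76 and 0.90 at the 2 ages, and Adgre1 by 0.68 (adjusted p 0.0164) and 0.60 (adjusted p 0.0461). The endocytic receptors Mrc1 and Stab1 did not pass at 10 weeks. Mrc1, the mannose receptor, differed by -0.09 at 10 weeks and fell by 0.42 (SE 0.14, adjusted p 0.0113) at 26 weeks. Stab1, the endocytic receptor stabilin-1, which endothelium also makes, differed by 0.12 and 0.26 and did not pass at either age.

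Lysosomal and secreted products were lower as well. Lyz2, the lysozyme of macrophages and neutrophils, had 4.99, 8.81 and 14.5 FPKM in KO mice, against 9.18, 16.4 and 35.9 FPKM in WT mice of 10 weeks. All WT mice thus exceeded the KO median, and the difference was -1.02 (SE 0.14, adjusted p 1.4e-07). Pf4, a chemokine of platelets and resident macrophages, differed by -1.15 (SE 0.22, adjusted p 4.05e-05) at 10 weeks and -1.34 (SE 0.20, adjusted p 2.67e-07) at 26 weeks. The chemokines Ccl9 and Ccl6 fell by 1.59 and 1.42 at 10 weeks, and by 0.98 and 0.84 at 26 weeks. F13a1, which encodes the A chain of clotting factor XIII, and Ctss, the cathepsin that trims the class II invariant chain, fell by 0.97 and 0.95 at 10 weeks. Lgmn, a lysosomal protease, was an exception, with 10.5, 12.6 and 16.2 FPKM in KO mice against 9.47, 13.9 and 15.7 FPKM in WT mice and a difference of -0.06. Ctss fell by 0.69 at 26 weeks (adjusted p 0.00748), a call that was lost when the mice of ZT 4 or of ZT 16 were left out.

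Receptors shared by several leukocytes moved the same way. The 3 genes of Fc receptors and their adaptors (Fcgr3, Fcer1g and Tyrobp), the 3 leukocyte membrane genes (Itgb2, Cd53 and Laptm5) and the 2 of the leukocyte cytoskeleton (Coro1a and Lcp1) were lower in KO than in WT muscle at both ages, with differences of -0.54 to -0.92 at 10 weeks. Tyrobp, the adaptor DAP12, fell by 0.68 (adjusted p 0.0037) at 10 weeks and by 0.69 (adjusted p 0.0285) at 26 weeks, and Fcer1g by 0.60 and 0.43 (adjusted p 0.0357 at 26 weeks). Leaving out the mice of 1 time point could end these calls: ZT 20 for Tyrobp at 10 weeks (adjusted p 0.0514), ZT 4 and ZT 16 for both genes at 26 weeks, and ZT 8 there for Tyrobp. The scavenger and pattern receptors Cd68 and Cd14 fell by 0.92 (adjusted p 0.000693) and 0.65 at 10 weeks. Without the 9 libraries Cd68 fell by 0.76 (adjusted p 0.000499). At 26 weeks Cd14, the co-receptor for lipopolysaccharide, fell by 1.01, whereas Cd68 had 0.567, 1.13 and 4.84 FPKM in KO mice against 0.467, 1.25 and 2.98 FPKM in WT mice and a difference of -0.08 (adjusted p 0.766).

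All 4 class II genes fell at both ages. H2-Ab1, the beta chain of the class II molecule I-A (ENSMUSG00000073421, chr17:34257689-34269419, GRCm38), had 1.81, 4.14 and 8.45 FPKM in KO mice, against 3.03, 7.17 and 11.8 FPKM in WT mice of 10 weeks. At 26 weeks it had 1.0, 3.83 and 8.62 FPKM in KO mice, against 3.33, 7.04 and 13.7 FPKM in WT mice. The ranges overlapped at both ages, and the differences were -0.77 (SE 0.17, adjusted p 0.000201) and -1.0 (SE 0.17, adjusted p 4.57e-06). Cd74, the invariant chain that escorts class II molecules, fell by 0.71 and 0.95, H2-Aa by 0.71 and 0.92, and H2-Eb1 by 0.57 and 0.73 on the log2 scale.

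The class I genes were higher in KO than WT muscle at 10 weeks, all 4 of them in the fit over all genes. H2-K1, a class I heavy chain (ENSMUSG00000061232, chr17:33996017-34000347, GRCm38), had 21.8, 32.7 and 44.8 FPKM in KO mice, against 17.4, 24.7 and 39.0 FPKM in WT mice. The groups overlapped over most of their range, and the difference was 0.41 (SE 0.08, adjusted p 8.96e-05). B2m differed by 0.30 (SE 0.09, adjusted p 0.00503), Tap1, which pumps peptides into the endoplasmic reticulum, by 0.51 (SE 0.15, adjusted p 0.0072), and H2-D1 by 0.22 (SE 0.08, adjusted p 0.0345). At 26 weeks none of the 4 passed, with differences of 0.12 for H2-K1, 0.25 for Tap1, 0.03 for H2-D1 and -0.00 for B2m. Reads of H2-K1, H2-D1 and the near-identical H2-Q genes can be divided among them by the counting, so their split is uncertain. The B2m call at 10 weeks was lost without the mice of ZT 4 (adjusted p 0.052) or ZT 16 (adjusted p 0.0505), and the H2-D1 call without the 9 libraries (adjusted p 0.0562) or without ZT 0, 8, 16 or 20.

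Among the members called lower in KO than in WT mice, the difference had the same sign at nearly all times of day and in both sexes. All 13 members that fell at 10 weeks were lower in KO mice at 6 of 6 time points, and at 26 weeks 10 of 12 were. These members were picked by their difference over the same mice, so the signs describe them and are no separate test. At 10 weeks the median difference of the 13 was -1.33 in females and -0.52 in males, and at 26 weeks that of the 12 was -0.91 in females and -0.88 in males. C1qa at 10 weeks averaged 0.70 in KO and 2.31 in WT females, and 1.24 in KO and 1.99 in WT males, on the log2 FPKM scale. The female minus male contrast of its KO against WT difference was -0.85 (SE 0.39, adjusted p 0.274). That contrast, added after the data were seen, was called for 0 of 18 members by limma at 10 weeks (10 at an unadjusted p under 0.05), where 0.517% of all genes were called. At 26 weeks it was called for 0 (1 unadjusted), where 0.193% were.

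Few members passed the test when Bmal1 was restored in muscle alone, and among them Cd163 had the largest difference. In Mu-RE against KO mice, 2 of 35 members rose at 10 weeks, where 14.9% of all genes rose, and 1 of 35 at 26 weeks, where again 14.9% did. The higher-level fit called 1 of 18 at 10 weeks, where 34.6% of all genes were called, and 1 of 18 at 26 weeks, where 33.9% were. C1qa differed by 0.07 (SE 0.18, adjusted p 0.797) at 10 weeks and by -0.10 (SE 0.16) at 26 weeks, and H2-Ab1 by 0.21 (SE 0.16) and -0.03 (SE 0.18). The changes other than Cd163 were small: Coro1a rose by 0.30 (SE 0.11, adjusted p 0.0438) and B2m fell by 0.23 (SE 0.08, adjusted p 0.0295) at 10 weeks, and Lgmn fell by 0.19 (SE 0.07, adjusted p 0.043) at 26 weeks. The higher-level fit called 0 of 18 at 10 weeks without ZT 0, 8, 12 or 16 and 2 without ZT 4, and 0 at 26 weeks without ZT 0, 8 or 16.

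Cd163 was higher in mice with Bmal1 restored in muscle. At 10 weeks it had 0.427, 0.697 and 1.10 FPKM in Mu-RE mice, against 0.204, 0.417 and 0.618 FPKM in KO mice. At 26 weeks it had 0.426, 0.696 and 1.11 FPKM in Mu-RE mice, against 0.181, 0.386 and 0.867 FPKM in KO mice. The Mu-RE median lay above the highest KO mouse at 10 weeks, the ranges overlapped at both ages, and the differences were 0.81 (SE 0.12, adjusted p 7.89e-07) and 0.83 (SE 0.13, adjusted p 2.11e-06). Muscle restoration on top of brain restoration was followed by a difference in the same direction. Cd163 had 0.553, 0.817 and 1.46 FPKM in RE-RE mice, against 0.205, 0.479 and 1.05 FPKM in Br-RE mice of 10 weeks, and RE-RE exceeded Br-RE mice by 0.84 (SE 0.13, adjusted p 2.35e-06). At 26 weeks the difference was 0.80 (SE 0.11, adjusted p 3.02e-07). These differences were positive at 6 of 6 time points and in both sexes. The RE-RE against Br-RE difference minus the Mu-RE against KO difference of Cd163 was 0.03 (SE 0.18, adjusted p 0.978) at 10 weeks and -0.04 (SE 0.17, adjusted p 0.999) at 26 weeks. Cd163 passed under each alternative run for it and on leaving out each time point, in these 4 comparisons and in KO against WT mice at both ages.

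Other members of the set seldom passed in RE-RE against Br-RE mice. Of the 35 members, 1 (Cd163) was higher in RE-RE than Br-RE mice at 10 weeks, where 13% of all genes were, and 2 (Cd163 and Ccl9, Ccl9 by 0.53, SE 0.18, adjusted p 0.0257) at 26 weeks, where 15.2% were. In the higher-level fit limma called 0 of 18 at 10 weeks (1 unadjusted), where 32.2% of all genes were called, and 0 at 26 weeks (2 unadjusted), where 35.3% were. At 26 weeks it called 1 without ZT 8 or 12 and 2 without ZT 20. C1qa differed by 0.04 (SE 0.18) and 0.11 (SE 0.18). The interaction of brain and muscle restoration was called for 0 of 18 members at either age (0 unadjusted), where 0.0203% of all genes were called at 10 weeks and 0% at 26 weeks.

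Set against WT mice, most members were lower in Mu-RE mice too. These comparisons share the WT mice with those of KO mice, and the values stand side by side without a comparison between them. In Mu-RE against WT mice 25 of 35 members fell at 10 weeks, where 11.8% of all genes fell, and 27 at 26 weeks, where 12.2% did. In the higher-level fit 12 of 18 fell and 1 rose at 10 weeks (26.5% of all genes called in either direction), and 12 fell and 0 rose at 26 weeks (30.8%). C1qa differed by -1.11 (SE 0.17) at 10 weeks and -1.06 (SE 0.17) at 26 weeks, and Cd74 by -1.07 (SE 0.13) at 26 weeks. Cd163 lay between: it was lower in Mu-RE than WT mice by 0.67 (SE 0.10, adjusted p 2.08e-06) at 10 weeks and 0.73 (SE 0.09, adjusted p 1.04e-07) at 26 weeks. H2-K1 was higher by 0.32 (SE 0.09, adjusted p 0.00472) at 10 weeks. Of the 12 that fell, picked from these same mice, 11 were lower at 6 of 6 time points at 10 weeks and 10 of 12 at 26 weeks. The median difference of those 12 was -1.09 in females and -0.34 in males at 10 weeks, and -1.26 and -0.65 at 26 weeks. The female minus male contrast was called for 0 of 18 members at 10 weeks (9 unadjusted), where 2.02% of all genes were, and for 0 at 26 weeks (3 unadjusted), where 0.071% were. Without ZT 0 it was called for 9 members at 10 weeks and without ZT 4 for 1. In the fit over all genes it was called for 1 of 35 at 10 weeks, Csf1r (-1.16, SE 0.32, adjusted p 0.0471).

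**Figure D3:**
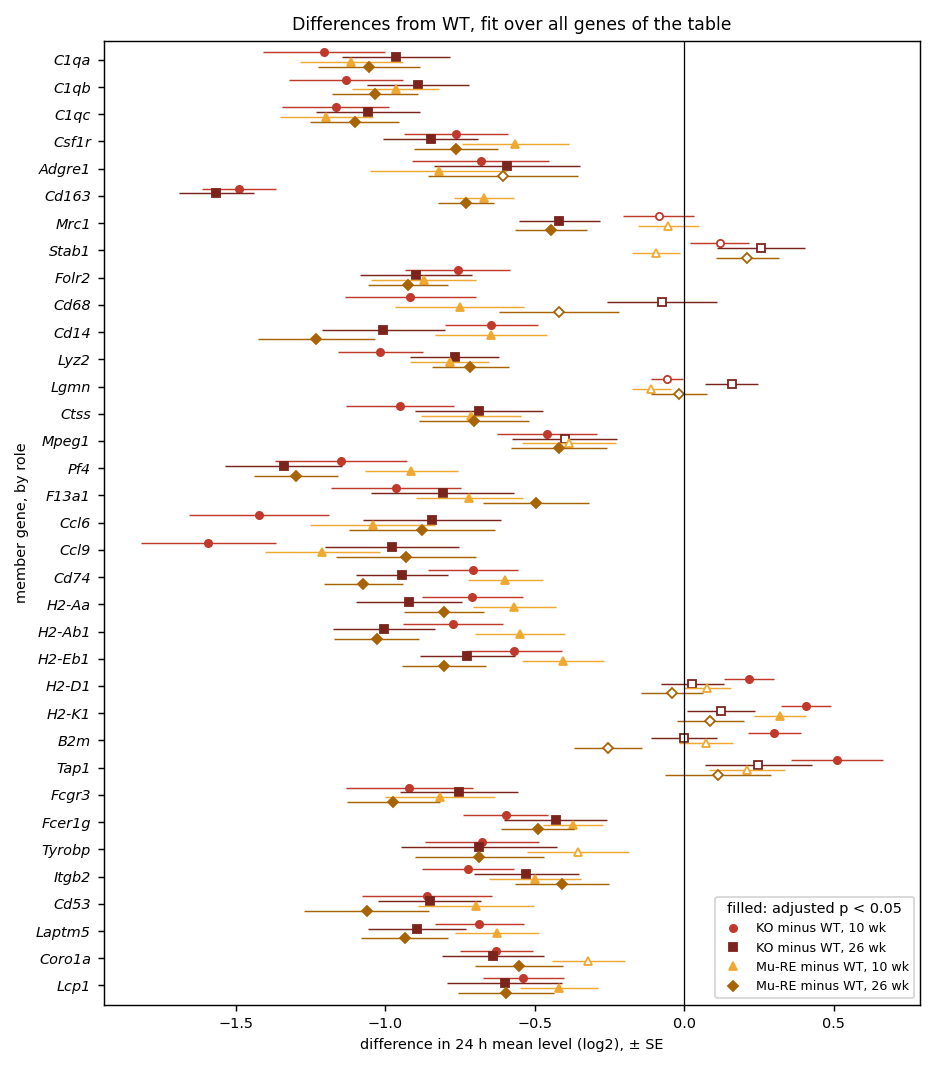
Differences of the 35 members (rows, by role) from WT mice on the log2 scale for KO and Mu-RE mice at both ages; filled points passed an adjusted p of 0.05. C1q and class II points lie left of 0 for both genotypes, Cd163 lies further left in KO than in Mu-RE mice, and class I points lie at or right of 0 at 10 weeks.

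With age part of the macrophage genes fell within WT mice, whereas no class II gene passed between 10 and 26 weeks (differences of -0.03 to -0.12). The WT comparisons across ages share mice and are given side by side. At 26 against 10 weeks 12 of 35 members fell, where 15.5% of all genes fell. In the higher-level fit 5 of 18 fell and 1 rose, where 37% of all genes changed. In that fit the share called in either direction was close to that of all genes. Csf1r had medians of 1.28, 0.832 and 0.612 FPKM in WT mice of 10 weeks, 26 weeks and old age, and Mrc1 medians of 1.28, 1.10 and 0.634 FPKM. Mrc1 ranged over 0.808 to 2.06, 0.556 to 1.69 and 0.247 to 1.77 FPKM at those ages, so neighbouring ages overlapped. At 26 against 10 weeks Csf1r fell by 0.64, Mrc1 by 0.33, Cd68 by 0.88 (SE 0.20, adjusted p 0.00078) and Stab1 by 0.47 (SE 0.10, adjusted p 0.000389). B2m rose by 0.33 (adjusted p 0.0127), and H2-Ab1 differed by -0.04 (SE 0.13).

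Old WT mice were low in Mrc1 against both younger ages. Against 26 weeks on ALF, 3 of 35 members fell in old mice, a share close to the 10.2% of all genes that fell. These were Mrc1 by 0.70 (SE 0.16, adjusted p 0.00162), Pf4 by 0.65 (SE 0.21, adjusted p 0.0189) and B2m by 0.33 (SE 0.11, adjusted p 0.0215). The higher-level fit called 2 of 18, where 24.2% of all genes were called. Leaving out ZT 8, 16 or 20 ended the Pf4 call, and leaving out ZT 4, 12 or 20 the B2m call, so that 0 were left without ZT 20. Against 10 weeks 18 of 35 fell in old mice, where 18.2% of all genes fell, and in the higher-level fit 11 of 18 changed, where 41.5% did. Without ZT 0, 8, 16 or 20 that number was 7, 2, 5 and 5. Mrc1 fell by 1.04 (SE 0.16, adjusted p 7.07e-07), Csf1r by 1.04 and Cd68 by 1.14, whereas H2-K1 rose by 0.37 (SE 0.09). On TRF old against 26-week WT mice had 1 member called of 35, Mrc1 (-0.38, SE 0.11, adjusted p 0.0178), where 5.45% of all genes fell. In the higher-level fit limma called 0 of 18 there (0 unadjusted), where 9.84% of all genes were called.

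Of 6 lineage receptors, Csf1r and Mrc1 also fell between 10 and 26 weeks in KO and in Mu-RE mice, and the other 4 did not pass. In KO mice 4 of 35 members fell, a share close to the 10.7% of all genes that fell: Csf1r by 0.72 (SE 0.17), Mrc1 by 0.67 (SE 0.13), Laptm5 by 0.66 and Lcp1 by 0.57. Limma called 0 of 18 in the higher-level fit of KO mice (2 unadjusted), where 25.3% of all genes were called. In Mu-RE mice 17 of 35 fell, where 13.5% of all genes fell, and 10 of 18 in the higher-level fit, where 32.4% changed; without ZT 16 that number was 5. Of the 4 class II genes 3 fell there, Cd74 by 0.54, H2-Ab1 by 0.52 and H2-Eb1 by 0.53, beside Mrc1 by 0.74 (SE 0.09, adjusted p 6.83e-08) and Csf1r by 0.86. The change in the KO against WT difference from 10 to 26 weeks was called for 1 of 18 members, Cd68 (0.84), where 18.8% of all genes were called, and for 0 without the 9 libraries or without ZT 0, 8, 12 or 16.

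Time-restricted feeding at 26 weeks came with higher Stab1 and with lower levels of 3 of the 4 class II genes in WT mice. Of 35 members 8 fell on TRF, where 14.9% of all genes fell. In the higher-level fit 5 of 18 fell and 1 rose, where 41% of all genes changed. In that fit the share called in either direction was under that of all genes, so that count is no result about the members. Without ZT 12 or ZT 20 that fit called 3 and 2 members in place of 6. Stab1 had 0.920, 1.47 and 2.31 FPKM in WT mice on TRF, against 0.648, 0.964 and 1.66 FPKM on ALF. The groups overlapped, and the difference was 0.59 (SE 0.09, adjusted p 1.19e-05). H2-Ab1 fell by 0.43 (SE 0.12, adjusted p 0.00549), H2-Aa by 0.38, Cd74 by 0.30, Pf4 by 0.49 and B2m by 0.42 (SE 0.10, adjusted p 0.000944).

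In Mu-RE mice 6 of 35 members fell on TRF, where 6.04% of all genes fell: Adgre1 by 0.86, Mpeg1 by 0.57, H2-Aa by 0.49, Itgb2 by 0.48, H2-Eb1 by 0.41 and Cd163 by 0.39 (SE 0.10, adjusted p 0.011). The higher-level fit called 4 of 18, where 16.9% of all genes changed, but 0 without ZT 0, 4 or 16 and 2 without ZT 12. No member passed in KO mice with limma (0 unadjusted of 18, 1 of 35), where 14.2% of all genes were called, nor in old mice (1 unadjusted; 1 called without ZT 12), where 0.142% were. The feeding response of KO minus that of WT mice was called for 1 of 18 members, Stab1 (-0.55), where 27.5% of all genes were called. It was called for 0 without ZT 16 or 20 or with a term for gene length, and for 2 without ZT 8. That of old minus 26-week WT mice was called for 0 (1 unadjusted), where 2.1% were.

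On TRF 18 of 35 members were lower in KO than in WT mice, where 23.8% of all genes fell. The higher-level fit called 9 of 18 lower and 1 higher, where 51.8% of all genes changed, and 6 in all without ZT 8. Cd163 had 0.318, 0.536 and 0.732 FPKM in Mu-RE, 0.151, 0.382 and 0.702 FPKM in KO and 0.363, 1.07 and 1.5 FPKM in WT mice. KO and WT mice overlapped in part, and KO against WT differed by -1.53 (SE 0.12, adjusted p 5.08e-14). C1qa fell by 0.87 (SE 0.20), Cd74 by 0.77, H2-Ab1 by 0.60 (SE 0.16, adjusted p 0.00219) and Stab1 by 0.29 (SE 0.09, adjusted p 0.00713), and B2m rose by 0.30 (adjusted p 0.0165).

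A rhythm over the day was called for 1 of 18 members, Stab1, and in 1 of the 15 groups, WT mice on TRF, where 37.8% of all genes were called. Its fitted amplitude was 0.42 on the log2 scale (SE 0.07, adjusted p 0.000332), a peak to trough ratio of 1.79, with the peak at ZT 3.39. In the fit over all genes Folr2 was called as well in that group, with an amplitude of 0.50 (SE 0.14, adjusted p 0.0226), a ratio of 2.01 and a peak at ZT 4.12. None of the 18 was called by limma in any other group, with 0 to 2 at an unadjusted p under 0.05 per group. The share of all genes called at 10 weeks was 0.588% in RE-RE, 29% in Br-RE, 0.071% in Mu-RE, 0.071% in KO and 5.84% in WT mice. At 26 weeks it was 0.76% in RE-RE, 0.69% in Br-RE, 0% in Mu-RE, 0% in KO and 1.04% in WT mice. On TRF it was 6.97% in Mu-RE and 6.2% in KO mice, and in old mice 5.71% on TRF and 1.41% on ALF.

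**Figure D4:**
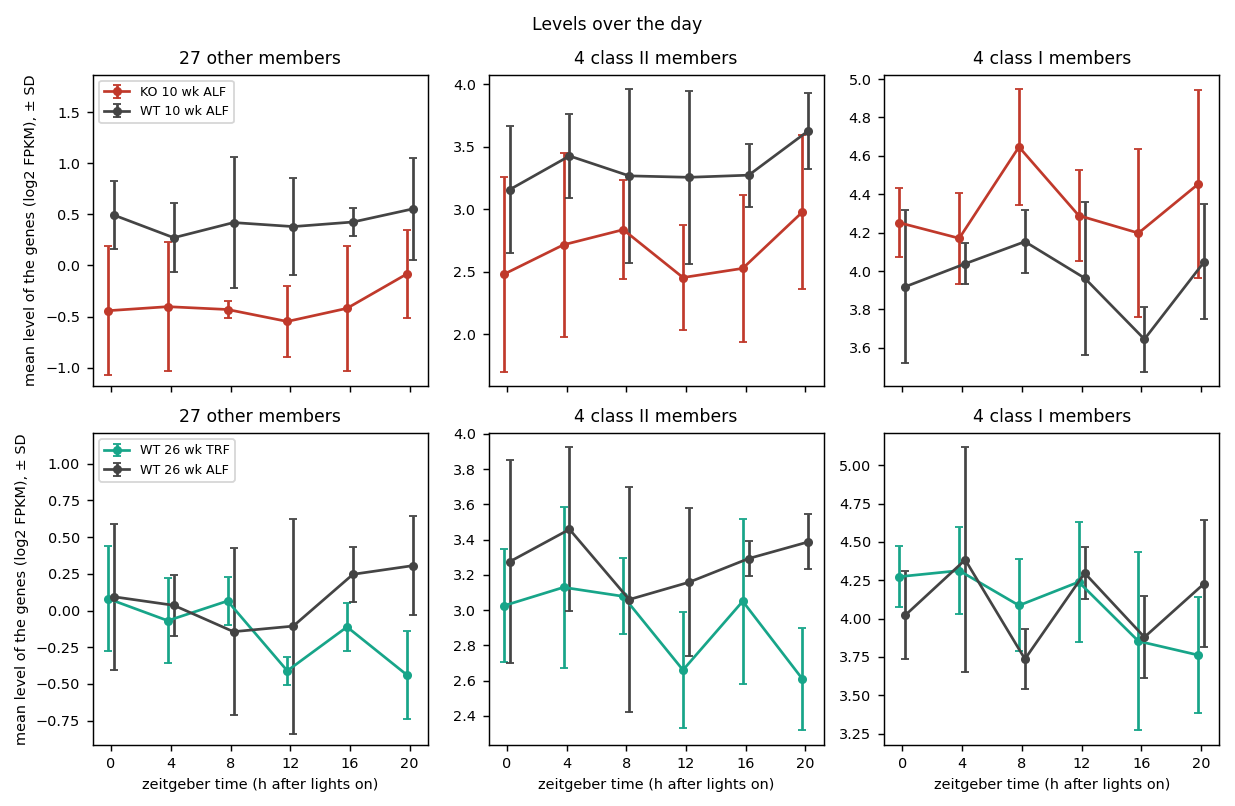
Mean level over the day (log2 FPKM, by zeitgeber time in hours) of the 27 members outside the MHC blocks, the 4 class II genes and the 4 class I genes. Points joined by lines are time point means over mice, and bars are the SD. The upper panels set KO against WT mice of 10 weeks, and the lower panels WT mice of 26 weeks on TRF against those on ALF. KO lines lie below WT lines at every time for the first 2 blocks and above them at every time for class I.

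How the members varied between mice of the same group and time point was described in 3 blocks set by role: class II, class I and the 27 others. Correlations of the deviations from these means over 352 mice are a description, with library, depth and dissection shared by all genes. The 4 class II genes had a median r of 0.915 with each other (0.94 for Cd74 and H2-Ab1), and the 3 C1q genes 0.839. The 4 class I genes had 0.754, and the 27 others 0.502. Between blocks the median r was 0.625 for class II with the others, 0.419 for class I with class II, and 0.176 for class I with the others. Class II thus varied with the others at a median r above that of the others among themselves (0.502). The class II genes had mean levels of 4.51 FPKM (H2-Ab1) to 13 FPKM (Cd74), and most of the 27 lay under 1 FPKM. The part of level in these values of r was not tested. Among the 27 others, Lyz2 was closest to the mean of the other 26 (r 0.910), and Lgmn (0.200) and Stab1 (0.11) were farthest. Cd163 had 0.512, and the member closest to it was F13a1 (0.551). The mean of the 27 had r 0.740 with the mean of the fibroblast markers and -0.144 with that of the endothelial markers.

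**Figure D5:**
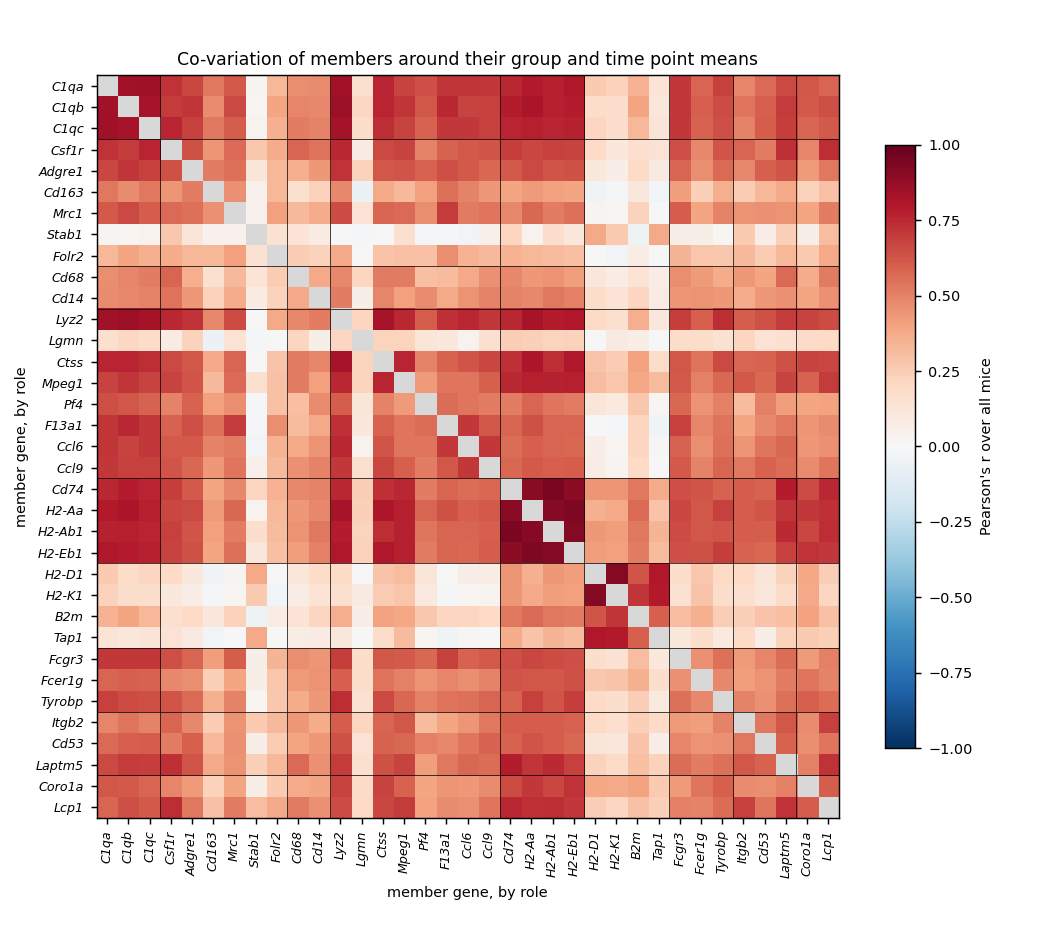
Pearson's r between the 35 members (both axes, by role) over 352 mice, after the mean of each group and time point was taken off. Class II, class I and C1q genes form squares of high r, and class I is pale against the rest; Stab1 and Lgmn are pale throughout.

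Markers of other cell types moved with these comparisons, and their part in the results was not tested. In KO against WT mice 41.8% of all genes of the higher-level fit were called at 10 weeks and 46.3% at 26 weeks. Of 6 fibroblast markers tested, 2 fell in KO against WT mice of 10 weeks (Dpt by 1.14 and Dcn by 0.85) and 3 at 26 weeks. The summed level of all 7 fibroblast markers in the table had a median of 171 FPKM (64.1 to 333) in KO and 208 FPKM (96.2 to 391) in WT mice at 10 weeks. At 26 weeks that sum had a median of 73.4 FPKM (28.3 to 142) in KO and 131 FPKM (64.6 to 255) in WT mice. All 6 tested markers were lower in old WT mice than in those of 10 or of 26 weeks on ALF (41.5% and 24.2% of all genes called). Of the 6, 4 were lower in WT mice at 26 than at 10 weeks (37% of all genes called). None of the 6 changed between Mu-RE and KO mice at either age (34.6% and 33.9% of all genes called). Of 7 endothelial markers, 5 were higher in KO than WT mice at 10 weeks and 6 at 26 weeks. In WT mice on TRF against ALF, where Stab1 rose and 41% of all genes were called, 5 of these markers were higher. Their summed level had a median of 87.5 FPKM (61.6 to 117) in KO and 62.1 FPKM (40.8 to 83.7) in WT mice at 10 weeks, and of 74.9 FPKM (43.4 to 125) in KO and 44.1 FPKM (19.9 to 79.4) in WT mice at 26 weeks. The 5 red cell markers did not pass in KO against WT mice at either age, and all 5 rose in WT mice between 10 and 26 weeks.
Neutrophil markers summed to group medians of 0.175 to 0.654 FPKM, and the only T and NK cell marker of 9 in the table had 0.0548 to 0.502 FPKM. Mast cell markers summed to 1.44 to 2.67 FPKM. B cells also make class II molecules, and 5 of 7 of their markers were in the table. Their summed level had a median of 14.8 FPKM (4.17 to 30.3) in Mu-RE, 64.6 FPKM (23.2 to 132) in KO and 25.0 FPKM (10.7 to 47.2) in WT mice of 10 weeks. At 26 weeks it was 7.14 FPKM (1.71 to 18.5) in Mu-RE, 23.4 FPKM (8.06 to 44.5) in KO and 21.1 FPKM (9.19 to 35.7) in WT mice, and in old WT mice on ALF it was 65.5 FPKM (18.3 to 914). In RE-RE against Br-RE mice the medians were 15.4 and 55.6 FPKM at 10 weeks, and 9.37 and 31.8 FPKM at 26 weeks. Ighm, the heavy chain of IgM and the only one of these genes in the higher-level fit, rose by 1.42 in KO against WT mice of 10 weeks and differed by 0.10 at 26 weeks without passing. It fell by 2.26 and 2.02 in Mu-RE against KO mice at the 2 ages, where none of the 4 class II members passed. The part of B cells in the members' differences was not tested.

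Genes that act with the members were described as whole lists. In KO against WT mice 41.8% of all genes were called at 10 weeks and 46.3% at 26 weeks, the shares to hold beside each count. Of 5 macrophage growth factors and attractants tested, 3 were lower and 1 higher in KO muscle at 10 weeks, and 4 were lower at 26 weeks. Cxcl14 fell by 1.35 and 2.06 at the 2 ages, Ccl11, the eosinophil attractant eotaxin, by 1.11 and 2.14, and Il34, a ligand of CSF1R, by 0.42 and 0.72. Of 8 complement genes and regulators, 5 were lower and 1 higher at 10 weeks, and 4 were lower and 2 higher at 26 weeks. C3, the central complement component, fell by 1.78 (SE 0.21) and 1.5 (SE 0.22), and the protease genes C1ra and C1s1, whose products join C1q, by 0.57 and 0.33 at 10 weeks and by 1.07 and 0.55 at 26 weeks.

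Of 10 monocyte and inflammatory macrophage genes 4 were in the table and 2 were tested. Neither passed in KO against WT mice at 10 weeks. At 26 weeks Lgals3, which encodes galectin-3, rose by 2.30 (SE 0.23), and it fell by 2.25 (SE 0.22) in Mu-RE against KO mice. The summed level of the 4 had a median of 19.3 FPKM (2.99 to 51.8) in KO and 20.0 FPKM (3.97 to 92.7) in WT mice of 10 weeks, and of 12.4 FPKM (4.71 to 83.2) in KO and 7.52 FPKM (1.93 to 38.3) in WT mice of 26 weeks. In old WT mice on ALF it was 5.29 FPKM (2.66 to 13.7).

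Other lists held changes in both directions, beside the 41.8% (10 weeks) and 46.3% (26 weeks) of all genes called in KO against WT mice. Counts near those shares are no result about a list. Of 17 other genes of the class I pathway, 8 were higher and 2 lower at 10 weeks, and 3 were higher and 4 lower at 26 weeks. H2-Q6, H2-Q7 and Psmb8, a subunit of the immunoproteasome, rose by 1.0, 0.84 and 0.44 at 10 weeks. Of 5 other genes of the class II pathway, 3 were higher and 1 lower at each age. Rfx5, which encodes a factor that binds class II promoters, rose by 0.80 (SE 0.08) and 1.17 (SE 0.08), opposite in sign to the class II genes, and Ifi30, a lysosomal thiol reductase, fell by 0.40 at 10 weeks. Of 6 genes of interferon-gamma signalling, 2 were higher and 1 lower at 10 weeks, and 1 was higher and 1 lower at 26 weeks. Jak2 fell by 0.85 and 1.2, and Irf1 rose by 0.38 at 10 weeks. Of 4 other resident macrophage genes tested, 1 was higher and 1 lower at 10 weeks, and 2 were higher and 2 lower at 26 weeks. Gas6 rose by 0.69 and 1.31 and Apoe fell by 0.37 and 0.30. The summed level of the 9 of 12 in the table was not lower in KO mice. Its median was 117 FPKM (110 to 149) in KO and 110 FPKM (76.2 to 164) in WT mice at 10 weeks. At 26 weeks it was 151 FPKM (124 to 195) in KO and 109 FPKM (97.8 to 138) in WT mice. Of 4 macrophage transcription factors, Nr1h3 rose by 0.23 at 10 weeks and Maf fell by 0.52 at 26 weeks.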

How the data were processed

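The submitters sequenced RNA of tibialis anterior muscle and excluded 8 mice for quality, per the series text, which leaves 352. The submitters' processing notes name the aligner HISAT2 2.1.0 on GRCm38, the counter featureCounts 1.6.2, the trimmer Trim Galore 0.5.0, and FastQC 0.11.8, limma 3.44.1 and edgeR 3.30.0. Values are on the log2 FPKM scale as computed by the authors, per the name of the deposited table. In it, females and males have equal means in every gene within 3 sets of libraries: 259 (WT, KO, Mu-RE and old), 47 and 46 (Br-RE and RE-RE at 10 and at 26 weeks). Both sets of Br-RE and RE-RE libraries also have the mean of the remaining mice of their age (71 and 140). No source used here names the step behind this. Levels of the sexes were therefore not compared, nor Br-RE or RE-RE with other genotypes.

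Models were fitted with limma 3.58.1 in R 4.3.3 (trend and robust) and the package data.table (1.17.8) over the compared groups: per group a level with cosine and sine terms of 24 h, and sex. P values are two-sided and adjusted by Benjamini-Hochberg over 9862 genes (mean log2 FPKM of at least 0) or over all 14413, with calls at 0.05; values of members under that mean come from the second. Differences are log2 values of the group named first minus the group named after it, with the standard error (SE). Tables and figures used matplotlib 3.10.9, numpy 2.4.6 and pandas 2.3.3 under Python 3.11.15. The fits were tested on simulated data. All members in the table could be named, and at most 4 called genes of the largest difference per other list. The members and lists were chosen with earlier results of these data known. Nothing in the labels says whether mice shared litters or cages. Replicate numbers lie within time points and no label ties them to a litter or batch. Samples were therefore not paired. In no comparison were all same-numbered pairs correlated over 0.1, but that rule is too strict to exclude structure shared by same-numbered mice.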

Additional observations from a re-analysis of the deposited data

Results flagged for a closer look

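Cd68 differed in its response between the ages. The KO against WT difference at 26 weeks minus that at 10 weeks was 0.84 on the log2 scale (SE 0.29, adjusted p 0.0294, limma). It was 0.58 (adjusted p 0.0781) without the 9 libraries that stood apart, which include the WT mouse with 19.6 FPKM of Cd68 at ZT 0. Without all mice of ZT 0 it was 0.49, without ZT 8 0.70, without ZT 12 0.77 and without ZT 16 0.97, and none of these passed.

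Stab1 differed in its response to feeding. The TRF against ALF difference in KO mice minus that in WT mice was -0.55 (SE 0.17, adjusted p 0.0132). With a term for gene length it was -0.31 (adjusted p 0.235), and without ZT 8, ZT 16 or ZT 20 it was -0.44, -0.55 and -0.50, and none of these passed. Without the 9 libraries it was -0.69 (adjusted p 0.000644).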

How the results depend on the processing

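No direction of a called value was reversed by any alternative. Numbers are members called of the 18 tested, after the number as reported. With one fit over all 15 groups they were 0 in place of 1 in Mu-RE against KO at 10 weeks, 1 in place of 0 in RE-RE against Br-RE at 10 weeks, 1 in place of 0 for 26 against 10 weeks in KO, 3 in place of 6 for TRF in WT and 2 in place of 4 for TRF in Mu-RE. With time points as levels they were 1 in place of 0 in RE-RE against Br-RE at 26 weeks and 2 for TRF in Mu-RE. With no filter on low values TRF in Mu-RE had 2. With a pseudocount of 1 FPKM the feeding response of KO minus WT had 2, and females minus males in Mu-RE at 10 weeks had 1. With a term for gene length the feeding response of KO minus WT had 0, the rhythm in WT on TRF 3, and females minus males had 4 in KO and 1 in Mu-RE at 10 weeks. Without the 9 libraries, a choice made after the data were seen, RE-RE against Br-RE at 10 weeks had 1, the KO against WT change with age 0, the feeding response of KO minus WT 2, that of old minus WT 1, and the rhythm in WT on TRF 2.

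When the mice of 1 time point were left out, numbers ran from 0 to 2 in Mu-RE against KO at 10 weeks, 0 to 1 at 26 weeks, 0 to 2 in RE-RE against Br-RE at 26 weeks, 6 to 11 in KO against WT on TRF (10 reported), 5 to 10 for 26 against 10 weeks in Mu-RE (10), 0 to 2 for old against 26 weeks (2), 2 to 12 for old against 10 weeks (11), 2 to 7 for TRF in WT (6), 0 to 6 for TRF in Mu-RE (4) and 0 to 1 for TRF in old mice (0). They ran from 0 to 1 for the KO against WT change with age (1), 0 to 2 for the feeding response of KO minus WT (1) and 0 to 9 for females minus males in Mu-RE at 10 weeks (0).

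Replicate numbers are given within time points and no label ties them to a litter or batch, so they were not taken to pair the mice. No comparison had all same-numbered pairs at a correlation over 0.1, a strict rule that cannot exclude shared structure. The number over 0.1 ran from 3 of 23 in RE-RE against Br-RE at 10 weeks (median r -0.0169) to 18 of 24 for TRF in old mice (0.144), with 15 of 21 in Mu-RE against WT at 26 weeks, 15 of 23 in Mu-RE against KO at 10 weeks, and 11 of 22 in KO against WT at 10 weeks. With the number as a block, 2 members were called in Mu-RE against KO and 2 in RE-RE against Br-RE at 26 weeks, and 7 in old against 10-week mice. Of 106 calls of single members, 12 were lost with the length term, 12 in one fit over all groups, 11 with the block, and 13 to 31 on leaving out 1 time point. Depth per library is unknown, so members near 1 FPKM carry counting error that these fits see only as spread between mice.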
